A study of Caenorhabditis elegans with 5 samples.

Results

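The Pumilio family genes puf-9, puf-8, puf-5, puf-3, puf-11, puf-12, fbf-1 and fbf-2 of C. elegans were examined for ATTF-4 binding, 8 of 19973 protein-coding genes on the nuclear chromosomes. They were selected by family membership after the strong ATTF-4 peak at puf-9 had been seen in these same lists, so the level at puf-9 is a description and was not tested. The protein-coding Pumilio genes puf-6 and puf-7 are not among the 8, and neither had a peak in the pooled list. A peak was assigned to a gene where its summit lay from 2000 bp upstream of the annotated 5′ end to 1000 bp past the 3′ end. puf-9 is the X-linked member (1 of 2731 X-linked genes), and the other 7 are autosomal (7 of 17242).

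ATTF-4 has an AT-hook, a short peptide motif that contacts the minor groove of DNA. ChIP-seq against it was done on whole L4 larvae, males and females pooled, of the strain OP219, which has the genotype unc-119(ed3) III; wgIs219 and stably carries a GFP-FLAG tag at the C-terminal end of the attf-4 product C05D10.1. All 5 libraries came from this strain and stage and formed 1 group. The labels number 3 biological replicates, of which replicate 1 has 1 library and the others 2 libraries each. Whole animals were sonicated, so signal from somatic and germline cells cannot be told apart, and no other stage or genotype was compared.

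Pumilio (PUF) proteins are RNA-binding proteins that recognise short sequence elements near the ends of mRNAs and mostly repress translation or promote decay of those mRNAs, often together with Nanos proteins and the CCR4-NOT deadenylase. In C. elegans most of the family acts in the germline. FBF-1 and FBF-2 maintain germline stem cells, PUF-8 acts in germ cell proliferation and fate, and PUF-5, PUF-3 and PUF-11 act in oocytes. PUF-9 acts in somatic tissues and in larval timing, where it represses hbl-1, and PUF-12 is a more distant member related to human PUM3. The measurements below concern ATTF-4 at the DNA of these genes, not the levels or activity of their products.

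Pooled ATTF-4 entries in the windows of these genes ranged from a strong promoter peak at puf-9 to entries near the floor of the list at puf-5 and puf-11. Of the 14 pooled peaks in all 8 windows, 5 were at puf-9 and 9 at autosomal members. The pooled list holds background as well as peaks, so a pooled peak here need not be a binding site. The −log10 q-value was 2.69 at the puf-9 promoter, which is the highest value in the pooled list and also the median of the final set. It was 1.43 at the puf-9 intron. It ran from 0.0927 to 0.475 at the other puf-9 entries and from 0.0189 to 0.343 at autosomal members, with a median of 0.144 over the list. Sequences around 4 of the summits are shown, 75 bases on each side, since they hold the strongest peak, the next strongest at the same gene, and the strongest pooled peaks of puf-12 and puf-8, the autosomal members with the highest signals. Each is read along the strand of its gene from the RefSeq genome (WBcel235, which is ce11). The first is at chrX:5841191-5841341 (plus strand), upstream of puf-9. The second is at chrX:5844274-5844424 (plus strand), in a puf-9 intron. The third is at chrII:10100781-10100931 (plus strand), in a puf-12 exon, and the last at chrII:7297039-7297189 (minus strand), in a puf-8 exon. Capitals mark, on either strand, GAGAGA in the first sequence and both TGACGT (read here as its reverse complement) and CACGTG in the last. The other sequences hold none of these words.
puf-9 promoter: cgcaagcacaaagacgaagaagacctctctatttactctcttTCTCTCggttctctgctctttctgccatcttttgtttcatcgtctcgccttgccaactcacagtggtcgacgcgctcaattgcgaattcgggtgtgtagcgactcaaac
puf-9 intron: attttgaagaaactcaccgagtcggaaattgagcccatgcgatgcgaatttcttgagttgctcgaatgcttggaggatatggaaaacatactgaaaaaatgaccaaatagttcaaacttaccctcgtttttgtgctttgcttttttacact
puf-12 exon: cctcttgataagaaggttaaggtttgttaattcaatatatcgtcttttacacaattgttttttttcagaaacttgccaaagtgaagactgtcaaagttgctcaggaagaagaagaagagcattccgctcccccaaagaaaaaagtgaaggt
puf-8 exon: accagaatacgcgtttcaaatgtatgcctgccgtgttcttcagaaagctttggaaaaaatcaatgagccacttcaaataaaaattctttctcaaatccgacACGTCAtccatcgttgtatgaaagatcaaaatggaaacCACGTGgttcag

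puf-9 (WBGene00004245, W06B11.2) lies at chrX:5841592-5845987 on the plus strand and has 1 annotated transcript. Its strongest pooled peak, at chrX:5841106-5841425, had its summit 326 bp upstream of the annotated 5′ end. The pooled signal, the peak caller's own value, was 55.7 there, which put the peak at rank 38 of 24897 pooled entries, rank 14 among nuclear entries and rank 6 on X. This is 5.96 times the median signal of the pooled list (9.35), and it is a peak of the authors' final set of 173, whose lowest signal was 29.4.

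The puf-9 promoter peak was present in each replicate list. In replicate 1 its signal was 13.2 (rank 159 of 30000), with a summit −96 bp from the pooled one. In replicate 2 it was 8.39 (rank 304 of 22227), with a summit 34 bp away on the gene side. In replicate 3 it was 39.4 (rank 32 of 30000), with a summit −22 bp away. The lists have their own signal scales, and relative to the median of its list the peak stood 3.41-fold higher in replicate 1, 2.72-fold higher in replicate 2 and 7.59-fold higher in replicate 3. The replicates thus shared the peak. Depth is unknown and the lists differ in scale and length, so these values do not show whether its height differed between replicates.

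The 3 replicate summits of that peak spanned 130 bp. Among 78 nuclear final-set peaks found in all replicate lists the median span was 59 bp and the largest 157 bp, and 5 of them, puf-9 included, spanned at least as far as puf-9. Its distance to the 5′ end was within the range of other such peaks. Of 61 nuclear final-set peaks in a promoter window (1000 bp upstream to 200 bp downstream of a 5′ end), 54 lay upstream, at a median of 293.5 bp, and 22 of those were farther upstream than the peak at puf-9.

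The summit lay inside 2 annotated ncRNA genes on opposite strands. W06B11.7 runs on the minus strand from 5841170 to 5841350, and W06B11.9 on the plus strand from 5841185 to 5841361. An ncRNA gene lay within 200 bp of the summit of 6.63% of nuclear pooled peaks and of 27.2% of nuclear final-set peaks. dct-11, the divergent neighbour, starts at −1814 bp from puf-9 on the minus strand. The same peak therefore falls in the window of dct-11 as well, and the peak list alone does not assign it to either gene.

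**Figure D1:**
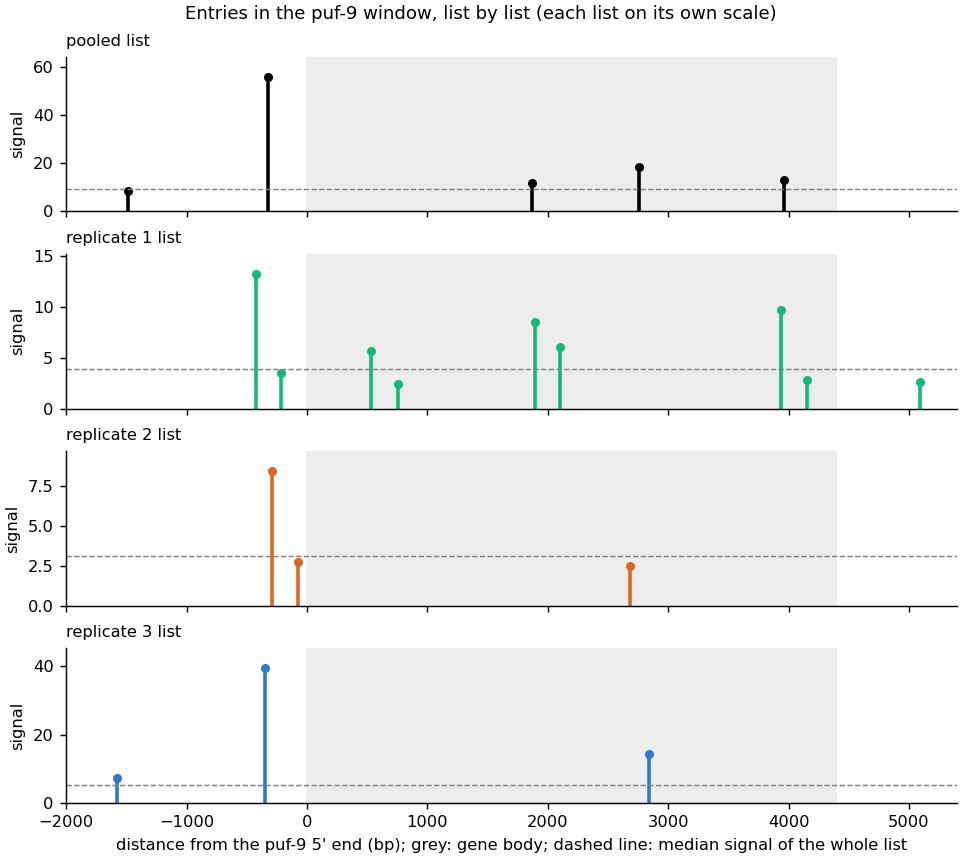
Signal (vertical axis, the peak caller's value, a separate scale for each list) of every entry in the puf-9 window against its distance in bp from the puf-9 5′ end, for the pooled list and the 3 replicate lists. Each stem is an entry, the grey band is the gene body and the dashed line is the median signal of that list. The promoter entry is the tallest in each list, at 55.7, 13.2, 8.39 and 39.4.

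The other 4 pooled peaks in the puf-9 window were weaker. An intronic peak at +2757 bp (chrX:5844189-5844508) had a pooled signal of 18.5 (rank 1054). It was present in replicate 3 with a signal of 14.2 (rank 422) and in replicate 2 with 2.46 (rank 16812), and absent from replicate 1, so only 1 list held it strongly. The promoter peak was 3.02 times as high in the pooled list.

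An exonic peak at +3961 bp had a pooled signal of 12.9 and one at +1867 bp had 11.9. Each was matched in replicate 1 alone, with signals of 9.67 (rank 759) and 8.54 (rank 1343). The weakest, at −1488 bp, had a pooled signal of 8.56 and was matched in replicate 3 alone, with 7.38. That summit lies nearest to the 5′ end of dct-11 and in the promoter window of that gene. Across the gene, replicates 1 and 3 thus held different secondary peaks, while replicate 2 held the intronic peak only weakly.

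All entries of the replicate lists in the puf-9 window came to 9 in replicate 1, 3 in replicate 2 and 3 in replicate 3. Of these 15 entries, 8 lay within 100 bp of a pooled summit and 4 within 100 bp of an entry of another replicate. The same shares over all entries of the replicate lists were not computed, so nothing about puf-9 is read from these counts. Replicate 1 held further entries at +2099 bp (signal 6.09) and +533 bp (signal 5.64), and 4 more with signals from 2.46 to 3.50. Replicate 2 had 1 more, at −77 bp with a signal of 2.72. These lists hold background entries, with medians of 3.87, 3.09 and 5.19, and 5 of these 7 further entries stood below the median of their list.

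Germline stem cell genes come first among the autosomal members. fbf-1 (WBGene00001401, chrII:6078263-6080843, minus strand) had 1 pooled peak, at +25 bp with a signal of 8.65 (rank 15291). The strongest entry in its window was 4.82 in replicate 1 and 5.74 in replicate 3, and replicate 2 held none. Only the entry of replicate 3 lay within 100 bp of the pooled summit.

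fbf-2 (WBGene00001402, chrII:6088863-6091480, minus strand) was the member with no pooled peak. Replicate 2 held 4 entries in its window, at +2880 bp (4.55), −338 bp (3.11), −619 bp (2.93) and +3571 bp (2.17). Replicate 3 held 1, at +311 bp with a signal of 5.13, and replicate 1 held none. No entry at fbf-2 lay within 100 bp of one from another replicate.

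Reads from near-identical copies bear on this pair. Of the 36-base words in the fbf-1 gene body 72.6% occur once in the genome, and 27.4% are shared with fbf-2. For fbf-2 these shares were 73.0% and 27.0%. Over the whole windows, 67.4% of words were unique at fbf-1 and 86.8% at fbf-2. Whether the authors' alignment kept reads that match several places is not given in the sources used here, so entries over the shared stretches are uncertain. The interval of the single pooled peak at fbf-1 was 91.2% unique by the same measure.

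puf-8 (WBGene00004244, chrII:7296110-7298247, minus strand), which acts in germ cell proliferation and fate, had 2 pooled peaks inside the gene. The exonic one at +1133 bp had a signal of 9.76 (rank 11082), and the one at +1354 bp had 8.72 and lies in the promoter window of the downstream neighbour C30G12.6. Both were matched in replicate 3 alone, with signals of 5.98 and 6.24. Replicate 1 held no entry at puf-8, and replicate 2 held 1, at +2353 bp with a signal of 2.09 (rank 21245).

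Among the oocyte genes, puf-5 (WBGene00004241, chrII:8575541-8577787, plus strand) had 1 pooled peak with a signal of 7.01 (rank 24606), close to the lowest signal of the pooled list (6.97). Its summit lay 940 bp past the 3′ end, in an intron of F54C9.9, and was matched in replicate 1 with 4.14. The strongest entries in the puf-5 window were 4.16, 2.99 and 3.98 in replicates 1, 2 and 3. The value in replicate 1 was above its list's median, and those in replicates 2 and 3 were below theirs.

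puf-3 (WBGene00004239, chrIV:13510307-13512162, minus strand) had 1 pooled peak with a signal of 8.65, 471 bp past its 3′ end in an intron of afmd-2, matched in replicate 3 with 6.41. Its strongest replicate entries were 3.98, 4.41 and 6.41 in replicates 1, 2 and 3. The entry of replicate 2 lay upstream of the gene at −318 bp and that of replicate 1 inside it at +882 bp. The strongest entries of the 3 lists thus lay at separate places. Replicate 3 also held a weaker upstream entry at −473 bp, with a signal of 4.71, below the median of its list (5.19). The interval of this weaker entry overlapped that of the replicate 2 entry, but their summits were too far apart to be called shared.

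puf-11 (WBGene00022257, chrIV:6421585-6423497, plus strand) had 1 pooled peak, at −781 bp, with a signal of 7.32 (rank 22543) and no match in any replicate. That summit lies inside the upstream neighbour htp-2, whose 3′ end is at −687 bp from puf-11. Its strongest entries were 2.34, 2.09 and 4.34 in replicates 1, 2 and 3, each below the median of its list. puf-3 and puf-11 are close copies in part. Of the 36-base words of the puf-3 gene body 4.06% are shared with puf-11, and 3.94% the other way. Over the whole windows, 97.6% of words were unique at puf-3 and 85.7% at puf-11.

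puf-12 (WBGene00014165, chrII:10100310-10103061, plus strand), related to human PUM3, held the most pooled peaks of the autosomal members, 3 in all. The exonic peak at +546 bp had the highest pooled signal of any autosomal member, 11.7 (rank 5959), and was matched in replicate 1 with 5.45. The peak at +2744 bp, where the 3′ ends of puf-12 and ZK945.4 overlap, had 9.63 and was matched in replicate 2 with 2.85 and in replicate 3 with 8.15, with summits within 1 bp of the pooled one.

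The remaining puf-12 peak, at −380 bp, lies in the promoter windows of both puf-12 and its divergent neighbour pas-7, a proteasome subunit gene, whose 5′ end is the nearer. Its pooled signal was 10.2 (rank 9715), while replicate 3 held it at 11.6 (rank 1017), and replicates 1 and 2 did not hold it. As at the puf-9 promoter, ncRNA genes (ZK945.12 and ZK945.13) lay within 200 bp of its summit. At puf-12, 4 of the replicate entries lay within 100 bp of an entry of another replicate, and these were the only such entries among the 34 at autosomal members. The share over all entries of the replicate lists was not computed, so these counts are not a result about the members.

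**Figure D2:**
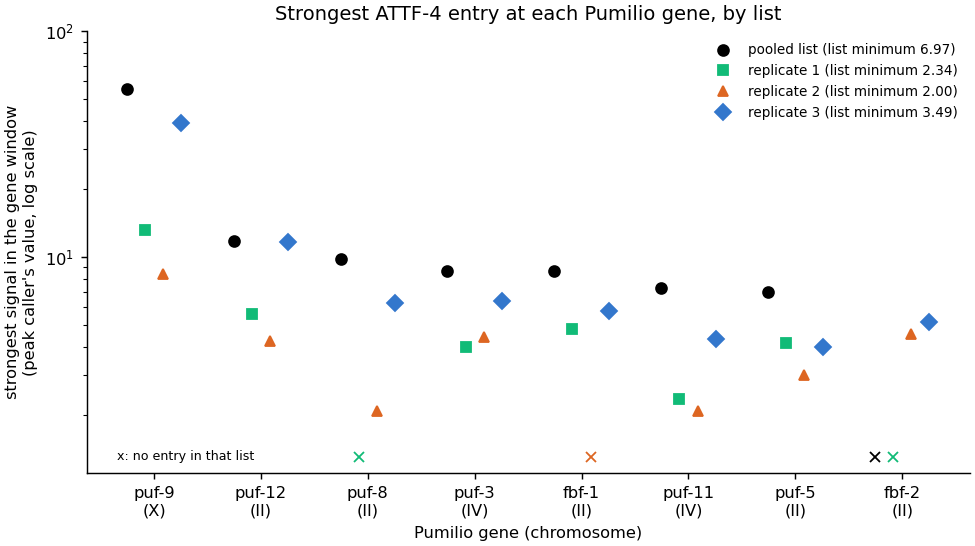
Strongest signal (vertical axis, log scale, the peak caller's value) in the window of each of the 8 Pumilio genes (horizontal axis, chromosome in brackets) in the pooled list and in each replicate list, with crosses for no entry. The minimum of each list is in the legend, since the lists have separate scales. Within each list the puf-9 value lies above that of the 7 autosomal genes.

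In order of pooled signal the members ran from puf-9 (55.7) to puf-12 (11.7), puf-8 (9.76), puf-3 and fbf-1 (8.65 each), puf-11 (7.32) and puf-5 (7.01), with fbf-2 at no entry. The pooled list has no replicate error of its own, and the replicate lists did not keep the order below puf-9. In replicate 1 the order of the strongest entries after puf-9 (13.2) was puf-12 (5.58), fbf-1 (4.82), puf-5 (4.16), puf-3 (3.98) and puf-11 (2.34). In replicate 2 it was puf-9 (8.39), fbf-2 (4.55), puf-3 (4.41), puf-12 (4.25), puf-5 (2.99), and then puf-8 and puf-11 (2.09 each). In replicate 3 it was puf-9 (39.4), puf-12 (11.6), puf-3 (6.41), puf-8 (6.24), fbf-1 (5.74), fbf-2 (5.13), puf-11 (4.34) and puf-5 (3.98).

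puf-9 led every list, which the choice of the genes anticipates, and the genes below it changed places from list to list, puf-12 included. The ratio of puf-9 to the highest autosomal member was 4.74 in the pooled list, 2.36 in replicate 1, 1.84 in replicate 2 and 3.40 in replicate 3. The second puf-9 peak was also above every autosomal peak in the pooled list, by 1.57 times. Autosomal pooled signals ran from 7.01 to 11.7 with a median of 8.72, and 4 of the 9 exceeded the median of the pooled list, against 4 of 5 at puf-9.

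**Figure D3:**
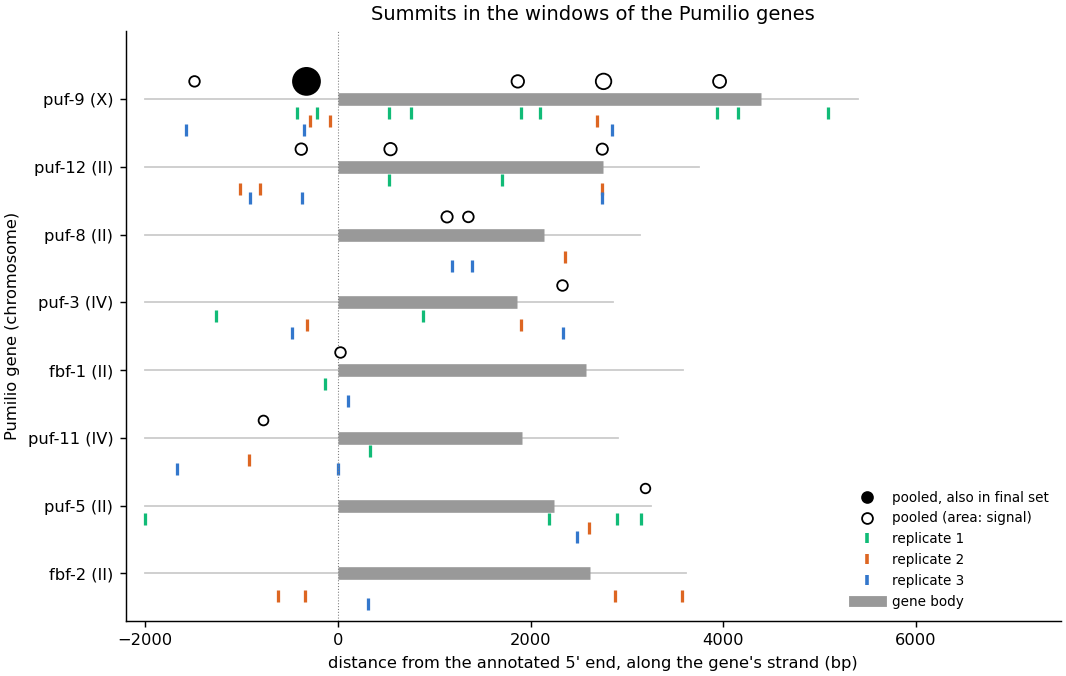
Position of every summit in the windows of the 8 Pumilio genes, as distance in bp from the annotated 5′ end along the strand of the gene. Circles are pooled peaks with area proportional to signal, filled for the final-set peak, ticks are entries of the replicate lists, and grey bars are gene bodies. All 3 replicates have a tick near the filled circle at puf-9, and elsewhere ticks of different replicates rarely stack.

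The counts were read against all protein-coding genes. A pooled peak in the window was found at 7 of the 8 members, and at 72.7% of all protein-coding genes. The count leaves out puf-6 and puf-7, protein-coding Pumilio genes outside the 8 with no pooled peak. The X-linked member had one, as did 77.9% of X-linked genes, and 6 of the 7 autosomal members did, as did 71.9% of autosomal genes. Most genes thus had a pooled peak in this list, and the count is not a result about the members.

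A final-set peak was in the window of 1 of the 8 members, puf-9, against 1.03% of all protein-coding genes. The shares were 1.5% for X-linked genes and 0.951% for autosomal genes, and 0 of the 7 autosomal members had one. Only 22 genes, puf-9 among them, had a pooled peak at least as high as that at puf-9, 6 on X and 16 on autosomes. The puf-9 value stood at percentile 99.9 of all genes, puf-12 at 71.0, puf-8 at 53.9, puf-3 at 43.6, fbf-1 at 43.5, puf-11 at 30.5 and puf-5 at 27.6. Since the genes were chosen on these lists, nothing is read from the puf-9 share.

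Among genes with a pooled peak the median of the strongest signal was 10.8, and 11.1 for X-linked genes. The median over the 7 members with a peak was 8.65. Peak density allows for window length. puf-9 had 0.676 pooled peaks per kb of window, against 0.287 for X-linked genes as a whole. puf-12 had 0.522, while the autosomal members together had 0.243 and autosomal genes as a whole 0.267. Windows with 5 or more pooled peaks, as at puf-9, occurred at 6.30% of genes, and at 8.13% of X-linked genes.

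**Figure D4:**
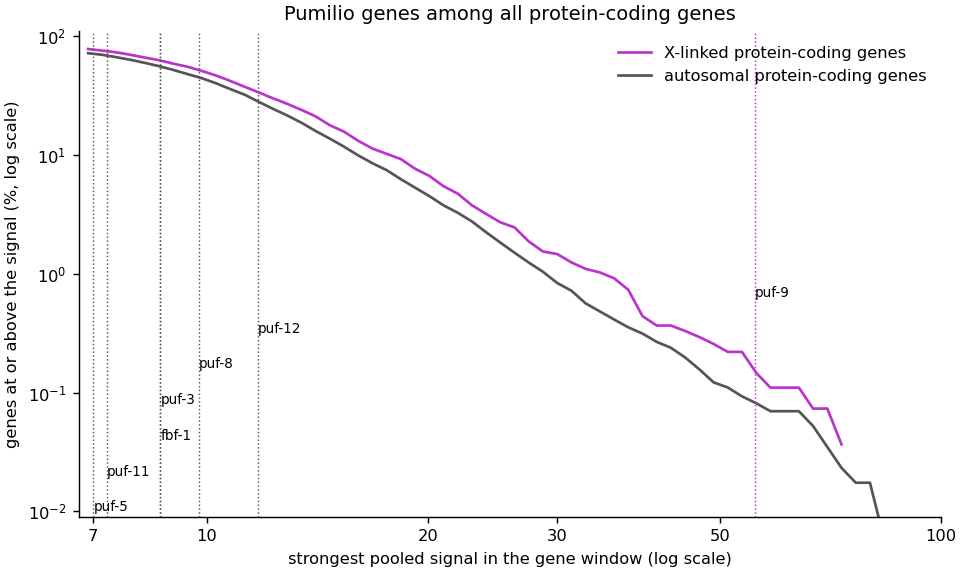
Share of protein-coding genes (vertical axis, percent, log scale) whose strongest pooled signal reaches the value on the horizontal axis (log scale), for X-linked and autosomal genes. Dotted lines mark 7 Pumilio genes, and fbf-2 has no pooled peak and no line. puf-9 at 55.7 lies in the tail of both curves, and the other members lie between 7.01 and 11.7.

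Outside the puf-9 promoter most member peaks were held by 1 replicate list or none, as were most nuclear pooled peaks, so this is not a result about the members. Of the 14 pooled peaks at members, 1 had a summit within 100 bp in every replicate list, 2 in 2 lists, 10 in 1 list and 1 in none. Of all nuclear pooled peaks 2.57% were found in every list, 19.6% in 2, 52.2% in 1 and 25.6% in none. Such a fully shared peak was in the window of 1 of 8 members, puf-9, against 4.44% of protein-coding genes. Among nuclear final-set peaks 53.1% were found in every list, and 60.0% of those on X. Of the 10 member peaks held by 1 replicate, replicate 3 held 6 and replicate 1 held 4. This split was not computed over all nuclear pooled peaks, so it is not a result about the members.

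By position, 6 of the 14 member peaks were in a promoter window, 5 in an exon and 3 in an intron. Over nuclear pooled peaks these classes made up 25.7%, 25.8% and 27.3%, and the other peaks lay within 1000 bp downstream of a gene or elsewhere. The promoter windows of 3 of those 6 member peaks belonged to the Pumilio gene alone (puf-9, puf-11 and fbf-1), 1 was shared with pas-7, and 2 belonged to a neighbour (dct-11 and C30G12.6). The puf-11 summit also lies inside the neighbouring gene htp-2.

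Base composition was not used to choose the genes. Within 100 bp of the summit the puf-9 promoter peak had 53.2% GC, above 97.8% of nuclear pooled peaks, whose mean was 37.6% ± 7.18 (SD, n = 24869 peaks). Nuclear final-set peaks had 44.9% ± 7.61 (SD, n = 147 peaks), and 20 of them had at least the GC of the puf-9 peak. The other puf-9 peaks had 43.3% at +1867 bp, 39.3% at +2757 bp, 32.8% at +3961 bp and 27.4% at −1488 bp. Peaks at autosomal members ran from 24.9%, at the 3′ end of puf-12, to 44.3%, at +1354 bp in puf-8. In all, 6 of the 14 were above the mean of nuclear pooled peaks.

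**Figure D5:**
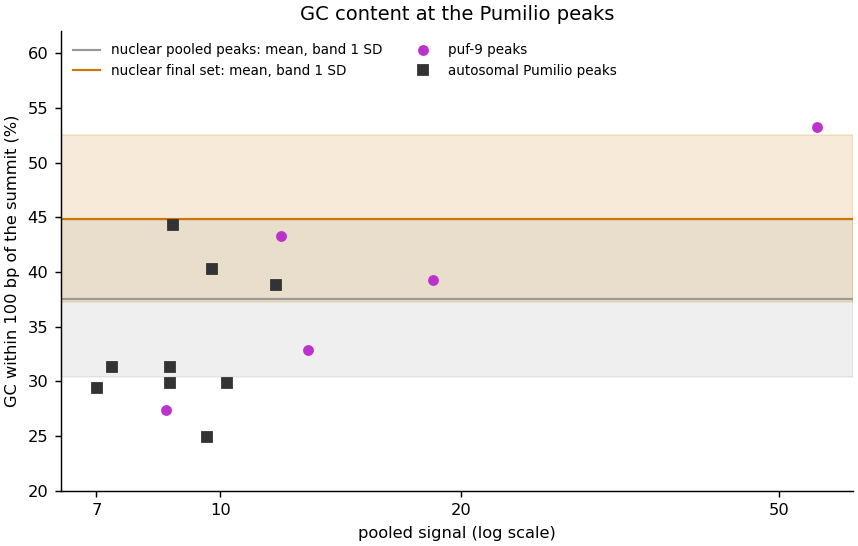
GC content within 100 bp of the summit (vertical axis, percent) against pooled signal (horizontal axis, log scale) for the 14 pooled peaks at Pumilio genes. Lines and bands give the mean and 1 SD of all nuclear pooled peaks (37.6% ± 7.18) and of the nuclear final set (44.9% ± 7.61). The puf-9 promoter peak at 53.2% lies highest, and the autosomal peaks lie between 24.9% and 44.3%.

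Short words were searched on both strands within 50 bp of each summit, and a match describes letters, not a site. GAGAGA was near 1 of the 14 member summits, that of the puf-9 promoter, where the printed sequence has its reverse complement, while 8.57% of nuclear pooled peaks and 23.8% of nuclear final-set peaks held it. AATATT was near 3, at puf-5, fbf-1 and the −380 bp peak of puf-12, against 9.96% of pooled and 0.680% of final-set peaks. TGACGT was near 1, in the puf-8 exon, against 3.64% and 3.40%.

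CACGTG was near none of the member summits, against 2.14% and 3.40%, and its copy in the printed puf-8 sequence lies farther than 50 bp from the summit. CCTGCG was near 0 of the 14, against 1.41% of pooled and 12.9% of final-set peaks. AATT, which AT-hooks can contact, was near 12 of the 14, with puf-11 and the −1488 bp peak of puf-9 the exceptions, against 68.1% of pooled and 42.9% of final-set peaks. Within 75 bases of the member summits no match of one word overlapped that of another.

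Some peaks sat close to the edge of a window. The puf-5 peak lay 60 bp inside its downstream edge. Just outside, pooled peaks with signals of 13.0 and 13.1 lay 246 and 841 bp beyond the downstream edge of puf-11, one of 13.4 lay 414 bp beyond that of puf-12, and one of 9.46 lay 479 bp beyond that of puf-9. A peak of 7.27 lay 537 bp beyond the upstream edge of puf-3. None of these was in the final set, and the 3 strongest of them exceeded every autosomal peak counted here.

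The genes whose strongest entries were most like those of puf-9 over the pooled and 3 replicate lists were found by the distance between log10 signals, the root of the summed squared differences over the 4 lists, among 699 other genes whose strongest pooled peak was matched in every replicate list. dct-11 was first, at a distance of 0, since it shares the peak. R12E2.11 and egg-5 followed at 0.0854, which share 1 peak with a pooled signal of 46.4 and replicate signals of 12.9, 7.85 and 40.1. K01G5.10 and rnf-113 were next at 0.132, which share 1 peak with signals of 64.2, 16.6, 9.49 and 36.7. tasp-1 shares that peak and tied with them.

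Other genes of the pathway are read against the same shares of all protein-coding genes, 72.7% with a pooled peak and 1.03% with a final-set peak. Of the other Pumilio genes, puf-6 and puf-7 had no pooled peak, and puf-4 and puf-10, pseudogenes in RefSeq, were not analysed here. Among 9 genes for partners of Pumilio proteins, 7 had a pooled peak and 0 a final-set peak, with strongest signals from 8.67 to 13.7 and a median of 12.3. The highest were ccf-1 (13.7), which encodes a deadenylase subunit, nos-1 (13.4), a Nanos gene, and sygl-1 (13.4), whose product works with FBF in stem cells. The sygl-1 peak was held by replicate 3 alone, with a signal of 10.1, and those of ccf-1 and nos-1 by replicates 1 and 3. nos-2 and cpb-1 had no pooled peak, and ntl-1, also on the list, was not analysed here.

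Of 13 genes whose mRNAs are known Pumilio targets, 11 had a pooled peak and 0 a final-set peak, with strongest signals from 7.37 to 15.4 and a median of 12.02. The highest were egl-4 (15.4), a cGMP-dependent kinase gene, hbl-1 (14.2), the X-linked timing gene that PUF-9 represses, and mpk-1 (14.1), a MAP kinase gene. The hbl-1 peak was held by replicate 1 alone, with a signal of 7.60, and so was the mpk-1 peak, with 15.5. The egl-4 peak was held by replicates 2 and 3, with 3.64 and 7.97. fog-3 and syp-2 had no pooled peak. Both lists had higher medians than the members (8.65), and their values lay below that of the puf-9 promoter. The medians are not matched for window length, and a longer gene has a longer window with more room for a high entry. The strongest summits of egl-4, hbl-1 and mpk-1 lay at +32005, +5863 and +4220 bp from the 5′ end. Those of ccf-1, nos-1 and sygl-1 lay at −1705, −1710 and −51 bp. With 13 or fewer genes in a list, counts near the shares of all protein-coding genes (72.7% and 1.03%) are not a result about these genes.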

How the data were processed

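ATTF-4 ChIP-seq peak lists on ce11 were used. Per the deposited file notes, the authors called peaks for each biological replicate, whose technical libraries share 1 alignment, and for all alignments pooled, each with a control, and derived the final set from these lists by the irreproducible discovery rate. The deposited lists give a signal and a −log10 q-value per peak, both as the authors' caller wrote them. Which aligner and caller were used is not given in the sources used here. The lists hold no read counts, so depth is unknown and no interval is given, and signal was compared only within a list. The final-set peaks are the strongest of the pooled list, so they were ranked by signal.

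Genes and ends came from Ensembl release 115 and sequences from RefSeq (WBcel235). Summits are counted from 1, and summits within 100 bp were called shared. The authors' replicates were described side by side. The members, gene lists and words were chosen with earlier results of these data known, and all members and list genes are named by the fixed rule or counted. No test was made, since there is 1 group and the genes were chosen on these lists. Counting steps were checked on simulated peaks with known positions. Alternatives covered window size, annotation, list, summit distance and leaving out replicates. Python 3.11.15, numpy 2.4.6, pandas 2.3.3 and matplotlib 3.10.9 were used. Lists on ce10 were not used here.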

Additional observations from a re-analysis of the deposited data

How the results depend on the processing

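Over 35 alternatives to the main settings, 25 values stayed within the set margin and 10 moved, and reversal was not scored. The margin was 1.5-fold for counts. For the puf-9 signal and the ratio it was the SD over the 3 replicate lists. That SD mixes lists on separate scales, so it is a loose margin, and the 39.4 of replicate 3 alone counted as unmoved. A window from 5000 bp upstream to 2000 bp past the 3′ end raised the pooled peaks from 14 to 27, 8 of them at puf-9. Keeping only entries of the pooled list above its median signal left 8 peaks at 3 genes. The single peak found in every replicate list became 0 with summits within 50 bp, and leaving out 1 replicate gave 1 to 3, with 3 without replicate 1. The puf-9 signal of 55.7 was 13.2 in replicate 1 and 8.39 in replicate 2 alone, on their own scales, and the ratio of 4.74 was 2.36, 1.84 and 3.40 in the 3 replicates. No paired analysis was possible because the study has 1 group. Depth is unknown, so its effect on the replicate lists cannot be given.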
